A study of Saccharomyces cerevisiae with 7 samples.

Results

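The genes described here are the nucleus-encoded mitochondrial ribosomal protein genes of budding yeast, Saccharomyces cerevisiae. They were chosen by symbol, as probe sets whose gene symbol on the array platform is MRP, MRPL, MRPS or RSM followed by a number. This gave 66 genes with 1 probe set each, out of 5498 probe sets that could be named to a gene. There were 34 MRPL, 9 MRPS, 12 MRP and 11 RSM genes, and none of their probe sets carried a suffix that marks cross-matching transcripts. MRP35, whose symbol also fits, was not analysed here.

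Their messengers were measured in total RNA on Affymetrix Yeast Genome 2.0 microarrays, with each culture on its own array, in 4 wild-type and 3 deletion cultures that the labels call biological replicates. The wild type was the haploid strain BY4741, of mating type a, which carries the auxotrophic alleles his3Δ1, leu2Δ0, met15Δ0 and ura3Δ0. The deletion strain was made in the same background and so shares those alleles; HMT1, which encodes the major enzyme that methylates arginines in proteins, was replaced by a KANMX4 cassette. Whether the deletion cultures came from 1 clone or several is not given, and neither is which of the rich, phosphate-replete or phosphate-depleted media of the study these cultures grew in.

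The mitochondrial ribosome translates the few proteins encoded by mitochondrial DNA, most of them core subunits of the respiratory chain and the ATP synthase. Nearly all of its proteins are encoded in the nucleus, made in the cytosol and imported, and they fall into those with a bacterial counterpart and those found only in mitochondria. In yeast the messengers of many of them are bound by Puf3, a protein that controls their decay and translation. Cells that lack a working mitochondrial ribosome cannot respire, though they grow by fermentation on glucose.

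The letters of a symbol do not always give the subunit. MRP7, MRP20 and MRP49 are large subunit proteins in spite of their letters. MRP8 was named as a mitochondrial ribosomal protein from its sequence but has no known place in the ribosome, and RSM22, related to methyltransferases, is thought to act in assembly of the small subunit. By the letters there were 34 large and 32 small subunit genes, and by known structure 37 large, 27 small and 2 with no place.

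HMT1 read 12.10, 11.76, 11.58 and 11.90 in wild-type replicates 1 to 4 and 5.03, 4.50 and 4.77 in deletion replicates 1 to 3, on the log2 scale of the deposited values. It fell by 7.07 (SE 0.15, limma adjusted p = 4.89e-07), with no overlap between the groups. Of the genes of the auxotrophic alleles, URA3 read 3.48 to 3.77, LEU2 4.82 to 5.26 and MET17 (MET15) 3.95 to 4.20 over the arrays. HIS3 read 11.35 to 11.69, and the cause was not tested. All 7 a-specific marker genes were measured, at 8.19 to 13.50, and of 5 markers of alpha cells 3 were, STE3 at 6.54 to 7.20, SAG1 at 8.77 to 9.15 and AFB1 at 8.65 to 10.00. Wild-type replicates 1 and 3 stood apart from the other 5 arrays in 5 reporter probe sets of the array. They read 3.18 to 4.44 there, against 6.16 to 12.6. Whether this reflects a difference between the wild-type cultures was not tested. In several a-specific genes wild-type replicates 1 and 3 were the lowest arrays, while replicates 2 and 4 were the highest and the deletion arrays lay between. ASG7, for example, read 8.19 and 8.52 in replicates 1 and 3 and 10.17 and 10.01 in replicates 2 and 4. Its deletion arrays read 9.19, 9.50 and 9.33. AFB1, counted above as a marker of alpha cells, had the same order. It read 8.65 and 8.90 in replicates 1 and 3, 10.00 and 9.60 in replicates 2 and 4, and 9.38, 9.43 and 9.41 in the deletion arrays. In STE6 wild-type replicate 1 (12.13) lay among the deletion arrays (12.09 to 12.22). The median, the counts of genes higher and the differences of RSM23, MRPS16 and MRP21 are therefore also given against each pair of wild-type arrays. The 7 arrays limit the precision of every value.

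No change of the messengers of the mitochondrial ribosome was detected between the strains. None of the 66 genes passed the limma test over all 5498 probe sets (smallest adjusted p = 0.611), where 11 probe sets, or 0.200%, were called. At an unadjusted p under 0.05 there was 1 of the 66 genes, RSM23, where 6.64% of all probe sets did so. The values of the strains did not overlap in that same gene alone, against 7.64% of all probe sets in either direction and 3.15% with the deletion strain higher. The share of these genes past either mark was thus below the background, but it rested on the same 1 gene under both marks. A count this small does not set these genes apart from the background.

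The differences, taken as the deletion mean minus the wild-type mean, ranged from -0.10 for MRPS16 to 0.17 for RSM23, with a median of 0.017. The median over all tested probe sets was 0.0065. In 42 genes (63.6%) the deletion strain was higher, against 52.5% of all probe sets. The quartiles of the 66 differences were -0.013 and 0.050.

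How large a difference these arrays leave possible can be read from the intervals of the fit. In 60 of the 66 genes the 95% interval of the difference lay wholly within 1.2-fold up or down, against 44.2% of all tested probe sets. The other 6 were RSM23, RSM25, MRP8, MRP20, MRP21 and MRPL28, and the bound farthest from 0 among all 66 was 1.33-fold, for MRP8. The normalization (RMA) gives all arrays 1 distribution and would hide a shift of the whole messenger pool, and in a whole culture fewer cells that express a gene and less RNA per cell cannot be told apart.

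**Figure D1:**
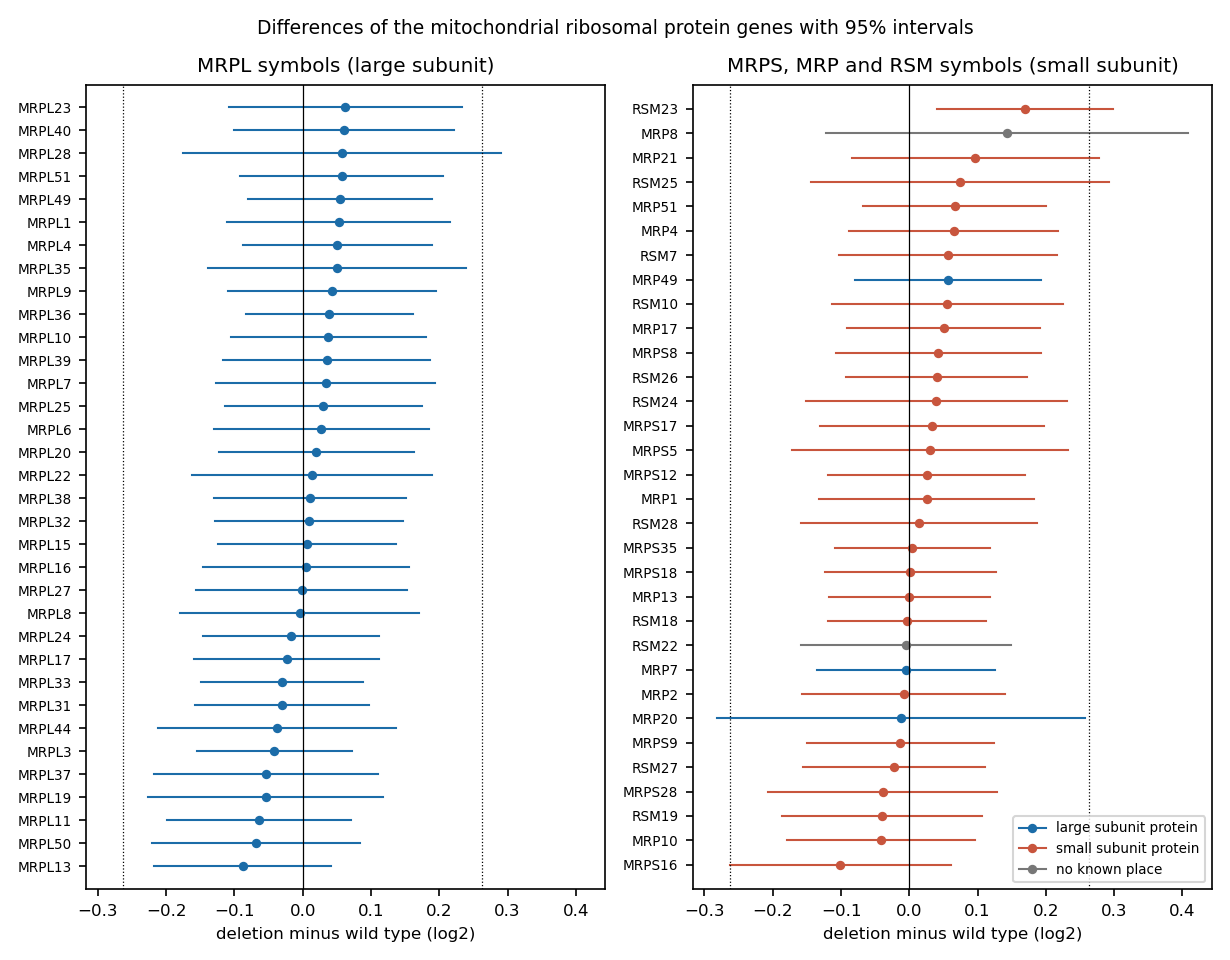
Difference of each gene between the HMT1 deletion and the wild type on the log2 scale, with points for the fitted difference, bars for its 95% interval and dotted lines at 1.2-fold, and colours for the subunit known from structure. The bar of RSM23 (0.041 to 0.30) is the only one that does not cross 0, and 60 of 66 bars lie between the dotted lines.

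RSM23 encodes a GTP-binding protein of the small subunit that has no bacterial counterpart and is the relative of human DAP3. It read 10.20, 10.06, 10.17 and 10.13 in wild-type replicates 1 to 4 and 10.33, 10.30 and 10.31 in deletion replicates 1 to 3. All 3 deletion arrays lay above all 4 wild-type arrays, by 0.096 at the nearest point, while the wild-type arrays spanned 0.14 and the deletion arrays 0.027. The difference was 0.17 (SE 0.056, 95% interval 0.041 to 0.30), which did not pass the test over all probe sets (limma adjusted p = 0.611, unadjusted p = 0.0163). It ranked 145th of the 5498 probe sets by p.

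Against wild-type replicates 2 and 4 alone the RSM23 difference was 0.21 (limma adjusted p = 0.254), and against replicates 1 and 3 alone 0.12 (limma adjusted p = 0.753). Its neighbours on the chromosome were looked at after these values were seen. CEG1, the guanylyltransferase of the messenger RNA capping enzyme, was 0.082 higher in the deletion strain (SE 0.054, limma adjusted p = 0.823). CWC23, a J-domain protein linked to splicing, was 0.12 higher (SE 0.066, limma adjusted p = 0.803). The strains did not overlap in either neighbour, where 3.15% of all probe sets had no overlap with the deletion strain higher. Neither passed the test, and no link between these genes was tested.

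The other 9 mitochondria-specific proteins of the small subunit gave differences between -0.042 and 0.074. MRP10, a small protein with paired cysteine motifs, was the lowest. It read 11.03, 11.13, 11.09 and 11.08 in the wild type and 11.08, 11.09 and 10.95 in the deletion strain, where replicate 3 alone was below all wild-type arrays. RSM25 was the highest of the 9. RSM26 and MRP1, which resemble superoxide dismutases, differed by 0.040 and 0.025. RSM27 had one of the smallest wild-type spreads among the small subunit genes, at 9.55 ± 0.017 (SD, n = 4), and read 9.52 ± 0.080 (SD, n = 3) without HMT1. MRPS35, with an SD of 0.0037, was almost flat over the deletion arrays.

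The 17 small subunit proteins with a bacterial counterpart differed by -0.10 to 0.097, with 11 higher and 6 lower in the deletion strain. MRPS16 read 10.79, 10.99, 10.76 and 10.85 in the wild type and 10.78, 10.75 and 10.71 in the deletion strain. Wild-type replicate 2 was its highest array, and the groups overlapped (difference -0.10, SE 0.070, limma adjusted p = 0.836). MRP21 stood the other way, at 9.37, 9.13, 9.43 and 9.30 in the wild type and 9.41, 9.43 and 9.37 in the deletion strain (difference 0.097, SE 0.078, limma adjusted p = 0.840). There wild-type replicate 2 was the lowest array. Without that array the differences were -0.053 for MRPS16 and 0.039 for MRP21. Against wild-type replicates 2 and 4 alone they were -0.17 and 0.19, and against replicates 1 and 3 alone -0.029 and 0.0077.

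MRP51 and MRP4, whose bacterial counterparts are the first and second proteins of the small subunit, were 0.066 (SE 0.058) and 0.065 (SE 0.066) higher without passing the test. RSM19 was 0.040 lower (SE 0.063). Its neighbour on the chromosome is MRPS12, the protein of the decoding centre, and they are the only pair of these 66 genes that lie next to each other. MRPS12 read 11.69, 11.69, 11.84 and 11.79 in the wild type and 11.83, 11.75 and 11.75 in the deletion strain, a difference of 0.025 (SE 0.062). All 3 deletion values of MRPS12 lay inside the wild-type range.

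Among the 37 large subunit proteins the strains overlapped in every case, and the smallest adjusted p was 0.820, for MRPL13. MRPL13, a mitochondria-specific protein, read 10.62, 10.63, 10.72 and 10.70 in the wild type and 10.63, 10.55 and 10.55 in the deletion strain. Deletion replicates 2 and 3 lay below all wild-type arrays, and replicate 1 lay among them (difference -0.088, SE 0.056). The 14 mitochondria-specific genes had 7 higher and 7 lower, with a median of 0.0024.

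MRPL3, which resembles the double-strand RNA cutting enzyme RNase III, was one of the least variable genes of the large subunit. Its wild-type level was 10.43 ± 0.021 (SD, n = 4), and its level without HMT1 was 10.39 ± 0.011 (SD, n = 3). MRPL28 was among the most variable, at 9.80, 9.87, 10.18 and 9.98 in the wild type and 10.14, 9.94 and 9.97 in the deletion strain. Its deletion arrays lay within the wild-type range (difference 0.058, SE 0.10). MRPL51, MRPL35 and MRP49 were 0.057 (SE 0.064), 0.050 (SE 0.082) and 0.056 (SE 0.059) higher, and none of them passed the test. The sign for MRPL28 turned without deletion replicate 1 (-0.0042), and that for MRPL35 without wild-type replicate 2 (-0.013). The MRPL51 difference shrank to 9.8e-05 without deletion replicate 2.

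The 23 large subunit proteins with a bacterial counterpart had 15 higher and 8 lower, between -0.068 and 0.063. MRPL50, the counterpart of a protein near the stalk that guides departing transfer RNA, read 10.96, 10.98, 11.14 and 11.11 in the wild type and 11.02, 10.96 and 10.95 in the deletion strain. Its difference was -0.068 (SE 0.066, limma adjusted p = 0.840). MRPL11, which in bacteria anchors the stalk that recruits translation factors, read 10.36, 10.29, 10.41 and 10.43 in the wild type and 10.36, 10.27 and 10.30 in the deletion strain (difference -0.064, SE 0.058). In both genes deletion replicate 1 was the highest deletion array and the groups overlapped.

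On the higher side, MRPL23 was at 0.063 (SE 0.074), MRPL40 at 0.060 (SE 0.070) and MRPL49 at 0.054 (SE 0.058). MRPL40 and MRP20 have counterparts at the exit of the peptide tunnel. MRP20 read 9.65, 9.24, 9.64 and 9.67 in the wild type and 9.62, 9.42 and 9.58 in the deletion strain, so that replicate 2 was the lowest array of each strain. Its wild-type SD of 0.21 was the largest of the 66 genes, and its difference of -0.012 (SE 0.12) became 0.048 without deletion replicate 2.

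MRP7, the counterpart of a bacterial protein that reaches the peptidyl transferase centre, had the smallest wild-type SD, 0.0087. It was listed at the same value to all deposited digits in 4 arrays (9.80 in wild-type replicates 2, 3 and 4 and in deletion replicate 1) and at 9.81, 9.87 and 9.72 in the others. Equal values in at least a pair of arrays were found in 27 of the 66 genes (40.9%) and in 26.1% of all tested probe sets. Small SDs of these genes can therefore rest on equal listed values. MRPL33 had the next smallest spread among MRPL genes after MRPL3, at 10.37 ± 0.024 (SD, n = 4) and 10.34 ± 0.039 (SD, n = 3).

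Neither of the genes with no place in the ribosome passed the test. MRP8 read 10.91, 11.00, 11.36 and 11.12 in the wild type and 11.34, 11.27 and 11.11 in the deletion strain (difference 0.14, SE 0.11, limma adjusted p = 0.840). Its wild-type SD of 0.20 came close to that of MRP20, and wild-type replicate 3 was its highest array of all. RSM22 read 8.53, 8.45, 8.55 and 8.50 in the wild type and 8.49, 8.61 and 8.40 in the deletion strain (difference -0.0047, SE 0.066). RSM22 was the only one of the 66 genes below the lower quartile of the probe set means (8.91).

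**Figure D2:**
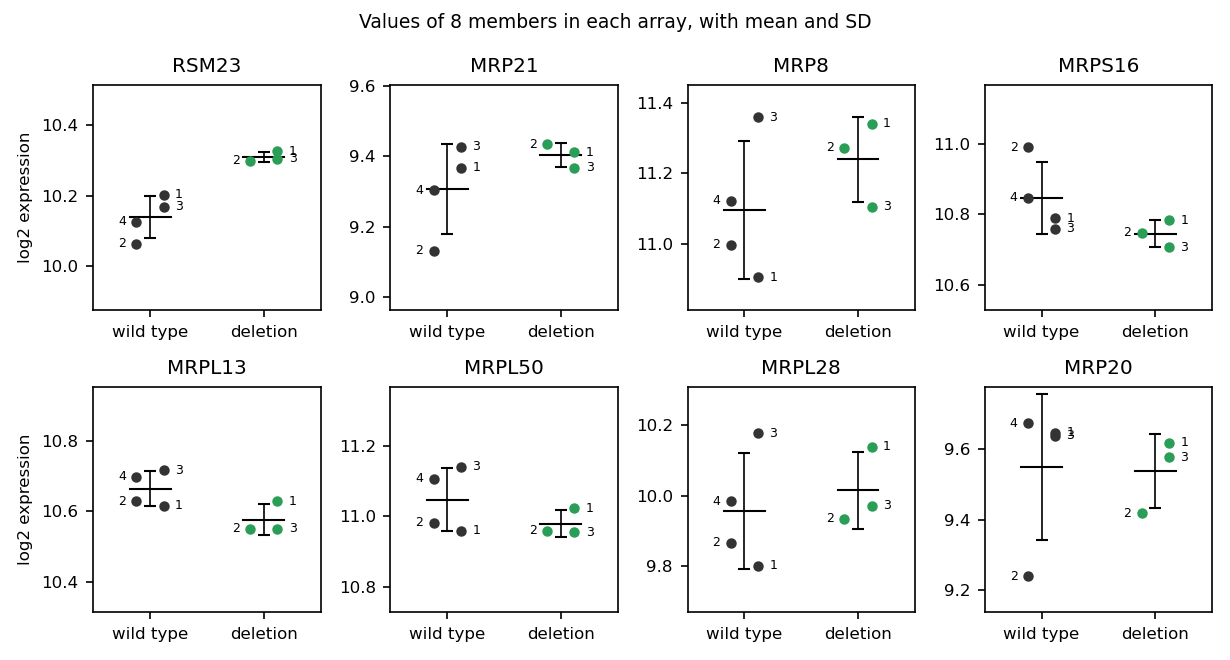
Log2 expression of 8 genes in each array, with the replicate number beside each point, the mean as a horizontal line and the SD as a bar. In RSM23 the 3 deletion arrays lie above the 4 wild-type arrays, and in the other 7 genes the groups overlap.

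Whether the subunits differed was asked from the same values. By symbol the median difference was 0.012 over 34 large and 0.025 over 32 small subunit genes, with 21 genes higher in each. The large subunit median was thus 0.013 below the small one. With the subunits taken from structure this gap was -0.015. The mean of the MRPL genes minus the mean of the others was 0.022, 0.056, 0.019 and 0.039 in wild-type replicates 1 to 4, and 0.023, 0.00021 and 0.025 in deletion replicates 1 to 3.

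Wild-type replicate 2 had the highest of these gaps and deletion replicate 2 the lowest, and the remaining arrays of the strains overlapped. For the wild type the gap averaged 0.034 ± 0.017 (SD, n = 4), and for the deletion strain 0.016 ± 0.014 (SD, n = 3), so the strains differed by about the spread between arrays. Signals of different probe sets depend on their probes, so only changes of this gap between arrays, not its level, can be read. The medians changed order against wild-type replicates 1 and 3 alone, where the large minus small value was 0.013. They also did so without wild-type replicate 2, where it was 0.00082.

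**Figure D3:**
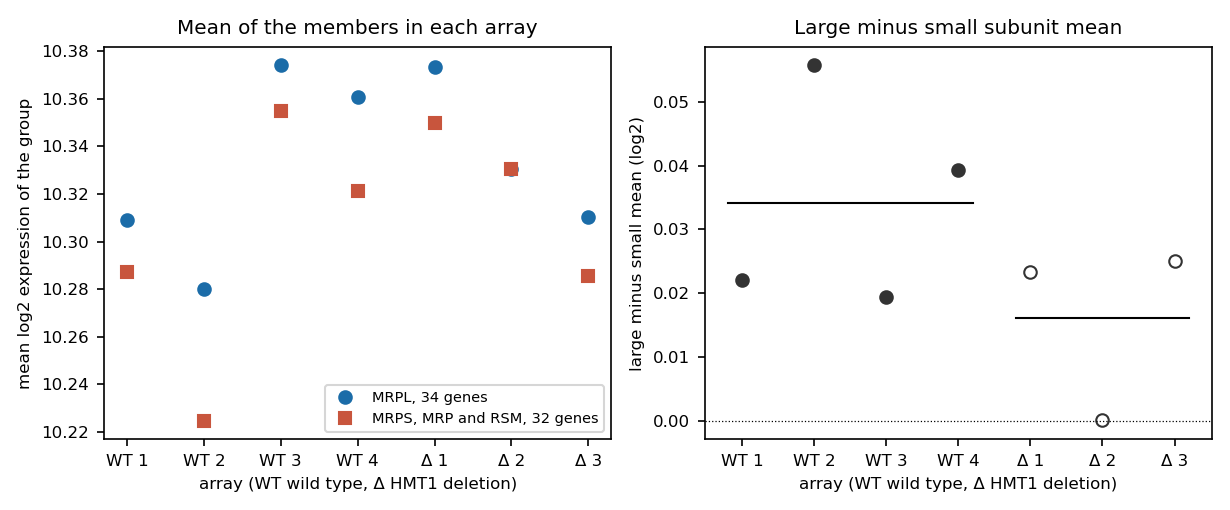
Left, mean log2 expression of the 34 MRPL genes (circles) and the 32 MRPS, MRP and RSM genes (squares) in each array; right, the large minus the small mean, with group means as lines. Both sets are lowest in wild-type replicate 2, and deletion replicate 2 has the smallest gap (0.00021).

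The arrays of the wild type differed more among themselves than the strains did. The mean of all 66 genes was 10.30, 10.25, 10.36 and 10.34 in wild-type replicates 1 to 4 and 10.36, 10.33 and 10.30 in deletion replicates 1 to 3. All deletion means lay inside the wild-type range, and the strain means differed by 0.016 with a wild-type SD of 0.049. In 55 of the 66 genes (83.3%) the deletion mean fell within the range of the wild-type arrays, against 74.3% of all probe sets, and in 28 genes all 3 deletion arrays did so (42.4%, against 40.2%).

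Wild-type replicate 2 was the lowest wild-type array in 40 of the 66 genes (60.6%), among them RSM23, MRP20 and MRP21, against 37.5% of all tested probe sets. These were 19 of the 34 MRPL genes and 21 of the 32 others. Relative to the other 3 wild-type arrays its median was -0.093 over the 66 genes and -0.044 over all probe sets. MRP20 (-0.41), RSM25 (-0.30) and MRPS5 (-0.29) lay farthest below, and MRPS16 (0.19) farthest above.

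How many genes were higher in the deletion strain depended on the arrays used. Without wild-type replicate 2, 30 of the 66 genes were higher (45.5%, against 49.4% of all probe sets) and the median became -0.0037. Without deletion replicate 1, 36 were higher (54.5%, against 50.2%) with a median of 0.0034, and without deletion replicate 3, 49 were higher (74.2%, against 51.5%) with a median of 0.039. With array weights in the fit, 28 genes were higher (42.4%, against 53.8%), and the median was -0.0052 against 0.0085 over all probe sets.

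Against wild-type replicates 2 and 4 alone, 45 genes were higher (68.2%, against 57% of all probe sets), and the median was 0.032 against 0.024. Against replicates 1 and 3 alone, 33 were higher (50%, against 45.4%), and the median was -0.00073 against -0.0095. Without wild-type replicates 1, 3 and 4 in turn, the share of genes higher was 66.7%, 68.2% and 66.7%. Among the single arrays, only leaving out wild-type replicate 2 brought this share below that of all probe sets. The cause was not tested.

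**Figure D4:**
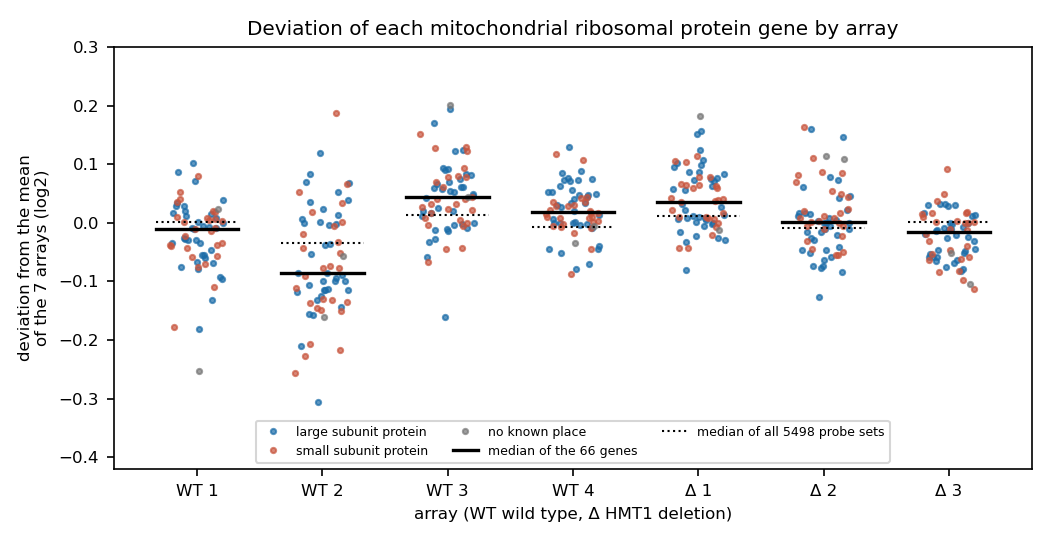
Deviation of each of the 66 genes from its own mean over the 7 arrays, on the log2 scale, with thick lines for the median of these genes and dotted lines for the median of all 5498 probe sets. The median of the 66 genes lies at -0.086 in wild-type replicate 2 and between -0.016 and 0.044 in the other 6 arrays.

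Replicate spread was small in these genes. The median wild-type SD was 0.075 over the 66 genes and 0.13 over all tested probe sets, and the median deletion SD was 0.046 against 0.071. The wild-type SD exceeded the deletion SD in 48 of the 66 genes (72.7%) and in 76.1% of all probe sets. The level of a probe set is not an abundance that can be set against another probe set, and wild-type means ran from 8.50 for RSM22 to 11.75 for MRPS12.

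Other genes of mitochondrial translation were compared in the same fit, and none of those listed below passed the test. Of the mitochondrial ribosomal proteins with other symbols, 8 large and 4 small subunit genes were measured, with medians of 0.0030 and 0.046. MNP1, the counterpart of the bacterial stalk protein, was at 0.064 (SE 0.058), RML2 at -0.050 (SE 0.072), NAM9 at -0.11 (SE 0.085) and EHD3 at 0.079 (SE 0.089).

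Assembly and mitochondrial RNA genes had 3 higher and 10 lower, where 52.5% of all probe sets were higher. Their median was -0.018, and they held the lowest p of these lists. DSS1, the exoribonuclease of the mitochondrial RNA degrading complex, read 8.17, 8.09, 8.11 and 8.15 in the wild type, and averaged 7.95 ± 0.044 (SD, n = 3) in the deletion strain. All of its deletion values lay below the wild type (difference -0.18, SE 0.053, limma adjusted p = 0.539). MTG1, a GTPase of large subunit assembly, was at 0.16 (SE 0.069, limma adjusted p = 0.742), and its groups did not overlap either. No overlap was thus found in 2 of these 13 genes, against 7.64% of all probe sets.

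The 12 translation factor genes were 6 higher and 6 lower, with a median of -0.0052. GTF1, a subunit of the enzyme that makes glutaminyl transfer RNA, was at 0.14 (SE 0.063) with all deletion arrays above the wild type. It was the 1 gene of the 12 without overlap, against 7.64% of all probe sets. MEF1, an elongation factor, was at -0.097 (SE 0.068). The 12 transfer RNA synthetase genes had a median of -0.0099, with MSK1 at -0.10 (SE 0.068) and MSE1 at 0.078 (SE 0.069).

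The genes listed as translational activators were 6 higher and 11 lower with a median of -0.054, where 52.5% of all probe sets were higher. The groups did not overlap in 2 of the 17, CBP1 and PET309, against 7.64% of all probe sets. Both were lower in the deletion strain. PET54, which acts on the messenger of a cytochrome oxidase subunit, was at -0.24 (SE 0.10, limma adjusted p = 0.742) and AEP2, which acts on an ATP synthase messenger, at -0.23 (SE 0.11, limma adjusted p = 0.746). The genes that hold the ribosome at the inner membrane had a median of -0.036 over 4 members. Among them OXA1, which inserts the new proteins, was at -0.098 (SE 0.056) and YLH47 at -0.14 (SE 0.079). PUF3 itself was at -0.13 (SE 0.10, limma adjusted p = 0.840), with values of 8.61, 8.77, 8.48 and 8.59 in the wild type and 8.27, 8.59 and 8.59 in the deletion strain. Deletion replicate 1 alone was below the wild-type range of PUF3.

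Genes with symbols of the complexes that the mitochondrial ribosome serves were set beside it. They were taken by symbol alone: COX, QCR or ATP with a number, the SDH genes, CYT1, COR1 and RIP1. This also takes in genes that are not subunits. ATP22 and ATP25, for example, are also counted among the activators and assembly genes above. The 51 probe sets of this respiratory chain and ATP synthase list had a median difference of 0.089, against 0.0065 over all tested probe sets. Of the 51, 42 were higher, where 52.5% of all probe sets were. An unadjusted limma p under 0.05 was found in 6, against 6.64% of all probe sets. The groups did not overlap in 4, against 7.64%. COX5A (0.25, SE 0.065, limma adjusted p = 0.421) and COX12 (0.18, SE 0.066, limma adjusted p = 0.719) had the smallest p. The 148 probe sets of cytosolic ribosomal protein genes had a median of 0.0069, with RPL22B at -0.22 (SE 0.090) and RPS16A at 0.079 (SE 0.071). The probe set of RPS16A carried a suffix that marks cross-matching transcripts, so its value may not be of RPS16A alone. None of either list passed the test, and no difference between these lists and the mitochondrial ribosomal protein genes was tested. Per array, the mean of the respiratory chain and ATP synthase list was 10.54, 10.65, 10.68 and 10.78 in the wild type. In the deletion strain it was 10.76, 10.84 and 10.68. The mean of that list was lowest in wild-type replicate 1, while the 66 mitochondrial ribosomal protein genes were lowest in replicate 2.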

How the data were processed

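The authors deposited log2 values, 1 for each probe set and array. They computed them by RMA with affy 1.52.0 according to the submitters' processing notes. Their probe set definition, filters and test are not given in the sources used for this text. Columns were matched to samples by label. Gene names came from the annotation of the platform, and 12 symbols were updated from the RefSeq R64 gene table; 402 of 5900 had no gene name and were left out. The table names no genome build, so no coordinates are given, and sequence features were not analysed here.

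Each probe set was compared between the strains by limma 3.58.1 (lmFit, eBayes; R 4.3.3), two-sided, with Benjamini-Hochberg adjustment over 5498 probe sets and a threshold of 0.05. Standard errors and 95% intervals come from this fit. It was run on simulated data with independent noise and changes larger than any of the mitochondrial ribosomal protein genes. That run therefore does not test the intervals of differences as small as theirs. The replicates are separate cultures by label. Figures were drawn with matplotlib 3.10.9.

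The genes, lists and tests were chosen with earlier results of these data known, and the 1.2-fold mark after the values were seen. The text names HMT1, any gene past the test, and by symbol subunit the 6 smallest p, the 3 largest differences each way, the 2 largest and 2 smallest wild-type SDs and genes without overlap, with MRP7, MRP20, MRP49, MRP8 and RSM22, and the 2 smallest p of each other list. Genes named beyond that served to fill out the protein groups and lists and were chosen after their values were seen. Alternatives were each array left out, pairs of wild-type arrays, a replicate block, rescaling, filters, other variance models and subunits by structure.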

Additional observations from a re-analysis of the deposited data

Results flagged for a closer look

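In 4 of the 44 named genes 1 wild-type array stood far from the other 3, as measured by the gap to its nearest neighbour divided by the range of the wild-type values (above Dixon's limit for 4 samples). Chance flags about 1 in 20 groups, and 9.21% of all tested probe sets and 5 of the 66 mitochondrial ribosomal protein genes passed this limit. The ratio was 0.918 for MRP20, 0.909 for MRPL35 and 0.834 for MRPL51, each with wild-type replicate 2 as the low array. MRP7 reached 1, since 3 of its wild-type arrays were listed at exactly the same value and replicate 1 lay 0.017 above them.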

How the results depend on the processing

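Over all 19 fits none of the 66 genes passed the limma test, or the ordinary unmoderated test on the same values; 0 to 2 had an unadjusted p under 0.05. The smallest adjusted p was 0.0767, for RSM23 with array weights, and RSM23 ranged from there to 0.997 with differences of 0.12 to 0.21. Leaving out single arrays gave medians of -0.0037 to 0.039 for the 66 genes and of -0.015 to 0.00082 for large minus small. Against wild-type replicates 1 and 3 only the large minus small value was 0.013. Of 831 values of named genes, 813 kept their sign and side of the threshold and 18 turned sign. Outside the leave-one-out fits these were MRP20 (0.029 with the replicate block, 0.081 against wild-type replicates 2 and 4), RSM22 (0.028 against the same pair, 0.0046 with repeated quantile normalization) and MRPL35 (-0.0075 against replicates 1 and 3). Leaving out single arrays gave -0.12 to 0.048 for MRP20, -0.061 to 0.046 for RSM22, -0.043 to 0.033 for MRP7, -0.013 to 0.088 for MRPL35, -0.0042 to 0.13 for MRPL28, -0.066 to 0.0030 for MRP10 and -0.069 to 0.0019 for RSM27. The cause was not tested. Array weights were added for the medians after the data had been seen. With the replicate block the 66 genes had a median of 0.026 and 0 calls. The deviations of each array from the mean of its own strain were correlated between same-numbered arrays, over all tested probe sets. These correlations of deviations, not of the arrays themselves, were -0.035, 0.17 and -0.51 for replicates 1 to 3. The numbers were therefore not taken to pair the cultures. Probe sets called over the whole table numbered 11, but 59 with array weights, 1 with the block, 1 when wild-type replicate 4 or one of the deletion arrays was left out, and 4 without suffixed probe sets. Without dim probe sets 65 of the 66 genes remained.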
